A study of Mus musculus with 12 samples.

Results

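The Hox cluster genes of the mouse were followed along the cochlea, from apex to base, at postnatal day 8 (P8) and postnatal day 0 (P0). They were taken as every gene of the array whose own single symbol is Hoxa, Hoxb, Hoxc or Hoxd followed by a number, which gave 37 of the 19938 genes with 1 symbol, each measured by 1 entry of the array. The tissue came from wild-type C57BL/6 mice, with no transgene and no treatment in any group, and after removal of the otic capsule it held the organ of Corti, the spiral limbus and the lateral wall together. It was cut into 3 equal pieces, and RNA of each piece was hybridized to an Affymetrix Mouse Gene 1.0 ST array. The 6 groups were P8 apex, P8 middle, P8 base, P0 apex, P0 middle and P0 base, each with 2 arrays, 1 from a first and 1 from a second dissection set (set 1 and set 2), which are 2 pools of temporal bones and not single animals. The 3 regions of an age and set were cut from 1 pool. The sample titles tell the sets apart only by a year, so dissection set and year cannot be told apart. Values are log2 signals from robust multiarray averaging (RMA), so that a difference of 1 is a doubling, and wherever 2 values are given for a group the first is from set 1 and the second from set 2. In such pieces of tissue, fewer cells that carry a transcript and less of the transcript per cell cannot be told apart.

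Hox genes encode homeodomain transcription factors and lie in clusters named HoxA to HoxD, in which their order on the chromosome follows the order of their expression along the body axis. Genes of the same number in different clusters are paralogues, and those with low numbers are used in the hindbrain, beside which the otic placode forms, while those with high numbers are used in the trunk, the limbs and the tail. Hoxa2 is the Hox gene with the most anterior expression in the hindbrain of the mouse, and in the neural crest of the second pharyngeal arch it is needed to form the stapes and the outer ear.

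Hoxa2 was the only one of the 37 Hox cluster genes that passed a test between the regions of the cochlea. Without a block it passed only between apex and base at P8, as did 0.0184% of all tested genes in that direction. That call was not kept under every setting. All 4 of its base arrays lay above all 8 arrays of middle and apex, at both ages, as in 17 of 16306 tested genes, or 0.104%. The 25 other Hox genes that could be tested differed by under 1.5-fold between the base and either other region, and none of them passed the test between regions or between ages. The sequence before the start of Hoxa2 is shown first, since the gene carries the difference. These are the 250 bases before its RefSeq start site, GRCm38.p6 chr6:52164832-52165081, minus strand, written 5′ to 3′ in the direction of transcription.
Hoxa2: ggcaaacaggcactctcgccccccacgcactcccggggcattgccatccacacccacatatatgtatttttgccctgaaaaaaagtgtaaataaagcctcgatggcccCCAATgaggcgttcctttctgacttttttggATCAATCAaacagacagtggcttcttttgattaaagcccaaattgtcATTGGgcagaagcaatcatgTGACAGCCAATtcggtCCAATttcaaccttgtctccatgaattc
Capitals mark matches to 3 motifs searched on both strands. The letters TGATNNAT, the form bound by Hox and Pbx proteins together, were found once, on the opposite strand, 111 to 104 bases before the start. TGACAG, the form bound by Meis and Pknox proteins, was found once, 44 to 39 bases before the start, directly next to 1 of 4 copies of CCAAT, the letters bound by NF-Y, which stood at 142 to 138, 64 to 60 (opposite strand), 38 to 34 and 28 to 24 bases. Of 32851 RefSeq promoters of this length, 7.68% held TGATNNAT, 15.9% held TGACAG, 33.9% held CCAAT and 1.30% held both of the first 2 motifs. Among the 23 promoters found for 21 of the Hox cluster genes, 3 held TGATNNAT, 2 held TGACAG, 13 held CCAAT, and 1, that of Hoxa2, held both of the first 2. A match of letters is a description of the sequence and not a binding site.

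In the apex Hoxa2 gave 5.77 and 5.53 at P8 and 5.53 and 5.52 at P0. The middle gave 5.87 and 6.00 at P8 and 5.63 and 5.78 at P0, and the base 7.07 and 7.86 at P8 and 6.90 and 7.48 at P0. The base was therefore high on every array, and in both ages set 2 was above set 1 there, while middle and apex stayed at about 6 or under it, the log level that the methods of the study ask of a gene before it is called differential. The mean of middle and of apex was under 6 at both ages, so no order between those 2 regions is read.

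Apex and base differed in Hoxa2 at P8 by −1.82 ± 0.27, a log2 value given like all below with its standard error (SE, n = 2 arrays in each group). This passed the test (limma adjusted p = 0.049 over the 16306 tested genes with a group mean above 6). A gene passed at an adjusted p under 0.05 and a fold of at least 1.5 between regions or of at least 2 between ages. Among all tested genes 3, or 0.0184%, were lower in the apex at P8 by this test and 29, or 0.178%, were higher, and 1 of the 26 tested Hox genes was lower and 0 were higher. The difference was −1.30 in set 1 and −2.34 in set 2. With a replicate block for the dissection set, which removes what the arrays of 1 set share, the adjusted p was 0.00159, and with a block for each pool it was 0.000126. The call without a block was lost with no filter on low signal (adjusted p = 0.0506), with only the arrays of the 2 groups (adjusted p = 0.838) and with any 1 of the 12 arrays left out (limma adjusted p from 0.0621 to 0.423). With apex arrays under 6 set to 6, the base mean was 2.77-fold higher than the apex at P8, where the measured means differed 3.53-fold. This value makes no allowance for the spread between the sets.

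At P0 the apex was lower than the base in Hoxa2 by a similar amount, −1.67 ± 0.27 (SE, n = 2 each), with −1.37 in set 1 and −1.96 in set 2. This did not pass limma without a block (adjusted p = 0.272), where 0 of the tested genes, 0%, were lower in the apex and 1, or 0.00613%, was higher. It passed with the replicate block (adjusted p = 0.00959) and with the pool block (adjusted p = 0.000745), as did 0.27% and 0.687% of all tested genes in the same direction. At P8 these shares were 0.442% with the replicate block and 1.26% with the pool block. The bound for P0 was at least 2.28-fold, with means that differed 3.17-fold.

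In the middle, too, Hoxa2 was lower than in the base. Middle and base differed at P8 by −1.53 ± 0.27 (SE, n = 2 each, limma adjusted p = 0.56), by −1.20 in set 1 and −1.86 in set 2. The mean of the middle was under 6 at both ages. With arrays under 6 set to 6, the base mean was 2.76-fold higher at P8 and 2.28-fold higher at P0, again with no allowance for the spread. With the replicate block the adjusted p was 0.0344, and Hoxa2 was the 1 gene of all 16306, or 0.00613%, that was lower in the middle by that test, whereas with the pool block (adjusted p = 0.00269) it was 1 of 17, or 0.104%. At P0 the difference was −1.49 ± 0.27 (SE, n = 2 each), with −1.26 in set 1 and −1.71 in set 2. Neither limma without a block (adjusted p = 1) nor the replicate block (adjusted p = 0.179) called it, and the pool block did (adjusted p = 0.0219), together with 0.0245% of all tested genes. Without a block 0% of tested genes passed in either direction between middle and base at either age. Counting genes of at least 1.5-fold at a raw p under 0.05, limma found 72 higher and 23 lower in the middle at P8, and 13 higher and 9 lower at P0, Hoxa2 being the 1 Hox gene among them at each age.

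Between the ages Hoxa2 did not pass the test. In the base P8 exceeded P0 by 0.28 ± 0.27 (SE, n = 2 each, limma adjusted p = 0.821), and over the 3 regions by 0.21 ± 0.16 (adjusted p = 0.407). The apex-base difference at P8 minus that at P0 was −0.16 ± 0.38 (adjusted p = 1), with an SE larger than the value itself. The age difference in the base was 0.17 in set 1 and 0.38 in set 2. Over the 3 regions it was 0.22 and 0.20. In the base its sign was thus shared by both sets, but not kept with every single array left out. It was −0.12 without P8 base replicate 2, 0.68 without P8 base replicate 1 and −0.02 without P0 base replicate 1. Such a fit weighs the sets unequally between the ages, and set 2 lay above set 1 in the base at both. The apex-base difference at P8 minus that at P0 was 0.06 in set 1 and −0.37 in set 2. Its direction is not settled. The change of the apex-base difference was 0.24 without P8 base replicate 2 and 0.14 without P0 base replicate 1.

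**Figure D1:**
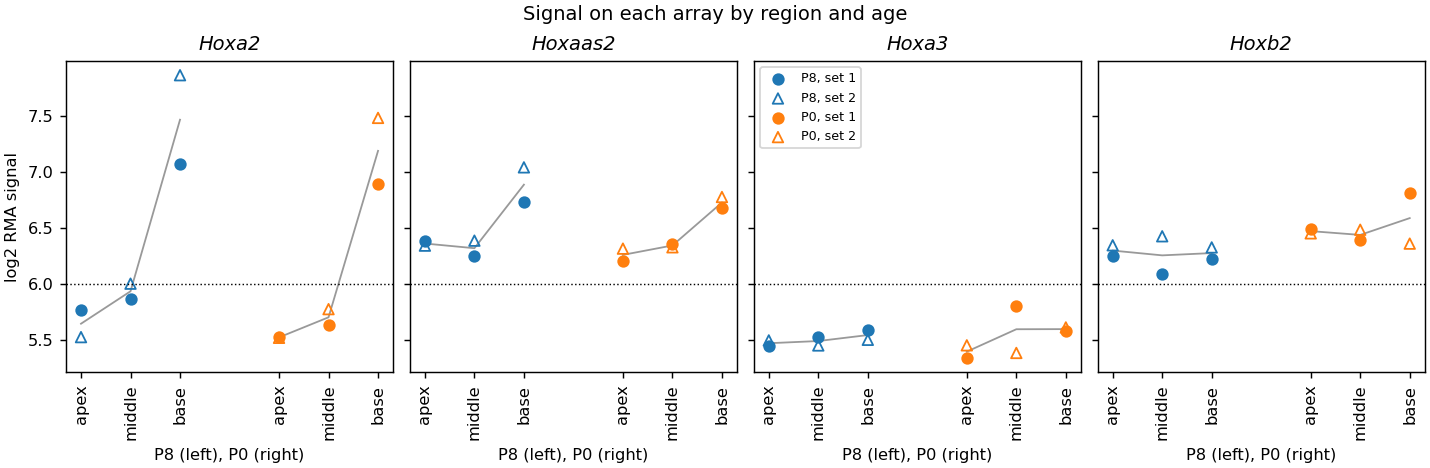
Log2 RMA signal (y axis) of Hoxa2, the adjacent Hoxaas2, Hoxa3 and the paralogue Hoxb2 in apex, middle and base at P8 (left in each panel, blue) and P0 (right, orange), with circles for set 1, triangles for set 2 and grey lines through the group means. The dotted line is the log2 level of 6. The 4 base arrays of Hoxa2 lie at 6.90 to 7.86 and its other arrays at 5.52 to 6.00, and the base arrays of Hoxaas2 likewise lie above its others, over a smaller range.

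Among the markers of the tissue in the pieces, 7 of 8 of organ of Corti and hair cells, 8 of 9 of lateral wall and 5 of 5 of spiral limbus and tectorial membrane had a mean above 6 in all 6 groups. The exceptions were Slc26a5, the motor protein gene of outer hair cells, at 6.05 and 5.65 in P0 base, and Tyrp1, a melanocyte gene, under 6 in all groups but P0 apex. Markers of other tissues were above 6 in all groups as well, with 8 of 9 for cartilage, 5 of 6 for bone and osteoblasts and 7 of 8 for oligodendrocytes and astrocytes. The vestibular and otoconial list, which shares Tectb with the tectorial membrane list, had 4 of 5. Skeletal muscle had 6 of 8, and middle ear epithelium and respiratory cilia 3 of 5. In the remaining lists all measured markers were above 6. Over all genes with 1 symbol this share was 75.8%, so that the level does not tell the tissues apart. Of 14 marker lists none had all 4 base arrays above the other 8 in its mean log2 signal, as Hoxa2 had, and 1, tendon and dense connective tissue (5 of 5 measured), had the base arrays above the rest within each age. Its mean was 7.86 to 8.40 in apex and middle and 8.55 to 8.75 in base at P8, and 7.41 to 7.83 in apex and middle and 7.89 to 7.92 in base at P0. The bone and osteoblast list (6 of 9 measured) was at 8.43 to 9.35 in apex and middle and 9.73 to 9.79 in base at P8, and at 6.58 to 7.06 in apex and middle and 6.70 to 6.81 in base at P0. Hair cell markers ran the other way, with 7.71 to 8.29 in apex and middle and 7.38 to 7.39 in base at P8, and 7.96 to 8.14 and 7.69 to 7.75 at P0. The part of these tissues in the Hoxa2 difference was not tested.

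How far the base stood apart was also measured as the lowest of the 4 base arrays minus the highest of the 8 middle and apex arrays. For Hoxa2 this separation was 0.89 on the log2 scale, rank 1 of the 16306 tested genes. Hoxa2 was among the tested genes only through its base groups, the groups where it is high. The separation also uses the same arrays as the tests above, so the rank is a description and no further support. It was above 0 in 17 genes, or 0.104%, and the median of all tested genes was −0.60. The other 25 tested Hox genes lay between −0.55 and −0.05, with Hoxa9 at the upper end, so that in none of them did the base arrays clear the rest.

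Rank 2 was held by Hoxaas2, a long noncoding RNA gene that lies between Hoxa2 and Hoxa3 and overlaps the annotated end of Hoxa3, at 0.29. It is not one of the 37 genes and was chosen after its values were seen. Hoxaas2 gave 6.38 and 6.34 in P8 apex, 6.25 and 6.39 in P8 middle and 6.73 and 7.04 in P8 base, and 6.21 and 6.32 in P0 apex, 6.36 and 6.33 in P0 middle and 6.68 and 6.78 in P0 base. All 4 base arrays were above the 8 others, among which apex and middle overlapped at P8, and the range was smaller than that of Hoxa2. Apex and base differed by −0.53 ± 0.14 at P8 (SE, n = 2 each, limma adjusted p = 0.42, 0.0598 with the replicate block) and by −0.47 ± 0.14 at P0 (adjusted p = 1, 0.159 with the replicate block). With the pool block the adjusted p was 0.0173 at P8 and 0.053 at P0, and at neither age did the difference reach 1.5-fold. Its signal and that of Hoxa2 had a Pearson r of 0.970 over the 12 arrays, which share 4 pools. Rank 3 in the separation was Gpr83, a G protein-coupled receptor gene outside the Hox clusters, at 0.21.

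**Figure D2:**
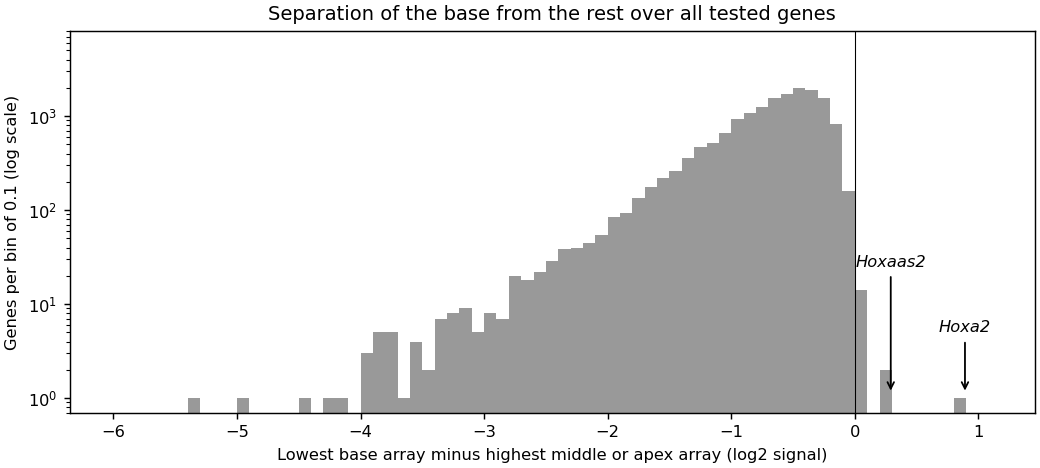
Number of tested genes (y axis, log scale) by the lowest base array minus the highest middle or apex array (x axis, log2 signal, bins of 0.1). Hoxa2 at 0.89 and Hoxaas2 at 0.29 are marked, and 17 of 16306 genes lie right of 0.

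Along the HoxA cluster no gene other than Hoxa2 passed the test, and for those under 6 in every group a difference may be missed. Hoxa3, the next Hox gene of the cluster, was under 6 in every group. It gave 5.45 and 5.5 in P8 apex, 5.53 and 5.45 in P8 middle and 5.59 and 5.5 in P8 base, and 5.34 and 5.45 in P0 apex, 5.81 and 5.39 in P0 middle and 5.58 and 5.61 in P0 base. The apex minus base values from Hoxa3 to Hoxa13, with the noncoding 5730596B20Rik and Mir196b between them, ran from −0.22 (Hoxa5) to 0.16 (Hoxa11) at P8 and from −0.29 (Hoxa4) to 0.01 (5730596B20Rik) at P0. Of the 10 other genes measured inside the 4 clusters 4 were tested (Hoxaas2, Mir196b, Mir615 and Hoxd3os1), and 0 passed in any comparison by limma without a block. Of the 24 measured genes that flank the clusters 23 were tested, and 0 passed without a block. Their largest apex-base values at P8 were those of Mtx2 (−0.63), a mitochondrial outer membrane protein, and Atp5g3 (−0.60), a subunit of ATP synthase, both beside HoxD.

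**Figure D3:**
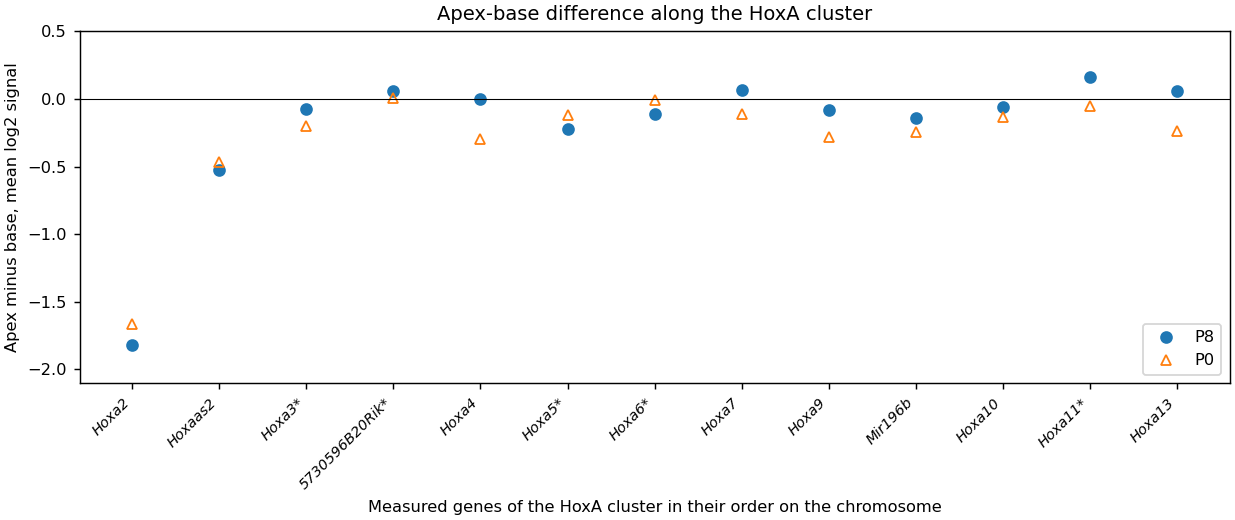
Difference of mean log2 signal, apex minus base (y axis), at P8 (filled circles) and P0 (open triangles) for the 13 measured genes of the HoxA cluster in their order on the chromosome (x axis), with an asterisk for genes under 6 in all groups. Hoxa2 lies at −1.82 and −1.67, Hoxaas2 at −0.53 and −0.47, and every other gene between −0.29 and 0.16.

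Of the 37 Hox genes 26 had a mean above 6 in at least 1 group and were tested, and 17 were above it in all 6 groups. Over all genes with 1 symbol the share above 6 in at least 1 group was 81.8%, over 1178 olfactory and vomeronasal receptor genes, which are used mainly in the nose, 14.2%, and over the Hox genes 70.3%. For a mean above 6 in all 6 groups these shares were 75.8%, 7.81% and 45.9%. By cluster, 6 of 10 HoxA genes, 8 of 9 HoxB genes, 4 of 9 HoxC genes and 8 of 9 HoxD genes were above 6 in a group, and in all 6 groups 3, 8, 1 and 5 of them. A signal above 6 is weak evidence that a gene is expressed, since the 95th percentile of the mean signal of the receptor genes was 6.40. A group mean above that value was found in 11 Hox genes (Hoxa2, Hoxa4, Hoxa7, Hoxb1, Hoxb2, Hoxb3, Hoxb5, Hoxb7, Hoxb9, Hoxd9 and Hoxd11). For this count any 1 of the 6 group means was enough. That is looser than the mean over 12 arrays from which the percentile was taken. The share of all genes above 6.40 was not computed. The 11 genes under 6 in all groups were Hoxa3, Hoxa5, Hoxa6, Hoxa11, Hoxb4, Hoxc4, Hoxc5, Hoxc6, Hoxc10, Hoxc11 and Hoxd8. Their single arrays ran from 4.35 to 6.22, with a spread over the 12 arrays of 0.33 to 0.82 for each gene. For comparison, the 25 genes above 6 other than Hoxa2 spread over 0.24 to 0.90 (median 0.60), so that the genes above and below the level varied by about as much.

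Among the anterior paralogues, numbers 1 to 4, 8 of 11 genes were above 6, and none but Hoxa2 had its base arrays above the rest. Hoxb1, which sets the identity of the hindbrain segment that forms the facial nerve, gave 7.22 and 7.26 in P8 apex, 6.97 and 7.33 in P8 middle and 6.99 and 7.30 in P8 base, and 6.78 and 7.20 in P0 apex, 7.18 and 7.14 in P0 middle and 7.24 and 7.12 in P0 base. Hoxd1, used in sensory neurons of the mouse, had 6.02 and 6.12 in the apex at P8, 5.94 and 6.21 in the middle and 5.95 and 6.05 in the base, followed at P0 by 6.29 and 6.10 in the apex, 6.09 and 5.95 in the middle and 6.25 and 5.98 in the base. Hoxb2, the paralogue of Hoxa2 in the hindbrain, gave 6.25 and 6.35 in P8 apex, 6.09 and 6.43 in P8 middle and 6.23 and 6.33 in P8 base, and 6.49 and 6.45 in P0 apex, 6.39 and 6.49 in P0 middle and 6.82 and 6.36 in P0 base. In Hoxb1 and Hoxd1 the apex and base arrays overlapped at both ages, and Hoxb2 had its highest array in P0 base of set 1. Hoxb3, a hindbrain and pharyngeal gene, had 7.41 and 7.47 in the apex at P8, 7.21 and 7.38 in the middle and 7.30 and 7.38 in the base, followed at P0 by 6.99 and 7.42 in the apex, 7.37 and 7.33 in the middle and 7.68 and 7.40 in the base. Hoxd3, which shapes the first neck vertebrae, gave 6.15 and 6.18 in P8 apex, 6.22 and 6.26 in P8 middle and 6.23 and 6.27 in P8 base, and 6.35 and 6.18 in P0 apex, 6.16 and 6.10 in P0 middle and 6.24 and 6.17 in P0 base. Hoxd3 had the smallest spread of the tested Hox genes, and Hoxb3 had both its lowest and its highest array at P0, in set 1. The log2 signal of Hoxa4, a gene of the neck vertebrae, was 7.17 and 7.25 in P8 apex, 6.86 and 7.12 in P8 middle, 7.24 and 7.19 in P8 base, 6.98 and 7.20 in P0 apex, 7.11 and 7.13 in P0 middle and 7.65 and 7.11 in P0 base. Hoxd4, a gene of the neck vertebrae as well, gave 6.50 and 6.05 in P8 apex, 6.10 and 6.05 in P8 middle and 6.50 and 6.05 in P8 base, and 6.33 and 6.21 in P0 apex, 6.19 and 6.05 in P0 middle and 6.29 and 6.12 in P0 base. Hoxa4 again had its highest array in P0 base of set 1, and Hoxd4 was higher in set 1 than in set 2 in every group.

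Of the central paralogues, numbers 5 to 8, 5 of 10 were above 6. Hoxb5, which acts in the shoulder girdle and the gut, gave 6.29 and 6.35 in P8 apex, 6.37 and 6.34 in P8 middle and 6.46 and 6.47 in P8 base, and 6.35 and 6.13 in P0 apex, 6.62 and 6.16 in P0 middle and 6.89 and 6.24 in P0 base. Hoxb6, a gene of the trunk, had 6.13 and 6.05 in the apex at P8, 5.98 and 6.14 in the middle and 5.99 and 6.05 in the base, followed at P0 by 6.12 and 6.07 in the apex, 6.49 and 5.89 in the middle and 6.45 and 5.95 in the base. Hoxa7, a gene of the thoracic vertebrae, gave 6.41 and 6.48 in P8 apex, 6.17 and 6.40 in P8 middle and 6.39 and 6.37 in P8 base, and 6.37 and 6.39 in P0 apex, 6.41 and 6.32 in P0 middle and 6.83 and 6.16 in P0 base. Hoxb5 and Hoxa7 had their highest array in P0 base of set 1, and Hoxb6 in P0 middle of set 1. Hoxb7, the paralogue of Hoxa7, had 6.29 and 6.21 in the apex at P8, 6.24 and 6.17 in the middle and 6.36 and 6.25 in the base, followed at P0 by 6.61 and 6.17 in the apex, 6.61 and 6.13 in the middle and 6.96 and 6.17 in the base. The log2 signal of Hoxc8, which patterns motor neurons of the forelimb, was 6.09 and 6.13 in P8 apex, 5.78 and 6.11 in P8 middle, 6.13 and 6.06 in P8 base, 5.67 and 5.96 in P0 apex, 5.85 and 5.65 in P0 middle and 6.22 and 6.00 in P0 base. The largest apex-base value of these 5 genes at P8 was that of Hoxb5, −0.15 ± 0.22 (SE, n = 2 each), and its P8 arrays all lay between 6.29 and 6.47.

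Posterior paralogues, numbers 9 to 13, were above 6 in 13 of 16 genes, and none of them passed between regions. Hoxa9, a gene of blood progenitors, gave 5.97 and 5.87 in P8 apex, 5.71 and 5.85 in P8 middle and 6.09 and 5.93 in P8 base, and 5.57 and 5.97 in P0 apex, 5.87 and 5.84 in P0 middle and 6.10 and 6.00 in P0 base. Hoxb9, a gene of the thoracic region, had 7.01 and 7.02 in the apex at P8, 6.86 and 7.17 in the middle and 6.72 and 7.0 in the base, followed at P0 by 6.60 and 7.13 in the apex, 6.92 and 6.94 in the middle and 7.01 and 6.97 in the base. Hoxc9, which sets motor neuron types of the thoracic spinal cord, gave 6.32 and 6.25 in P8 apex, 6.11 and 6.25 in P8 middle and 6.27 and 6.29 in P8 base, and 6.16 and 6.46 in P0 apex, 6.54 and 6.23 in P0 middle and 6.53 and 6.17 in P0 base. Of these Hoxa9 crossed 6 only in the base, with means of 6.01 at P8 and 6.05 at P0, and Hoxb9 had the largest positive apex-base value of the tested Hox genes at P8. The log2 signal of Hoxd9, a limb gene, was 6.47 and 6.49 in P8 apex, 6.41 and 6.47 in P8 middle, 6.61 and 6.41 in P8 base, 6.57 and 6.41 in P0 apex, 6.84 and 6.37 in P0 middle and 6.81 and 6.48 in P0 base. Hoxa10, a gene of the lumbar vertebrae and the uterus, gave 5.96 and 6.05 in P8 apex, 5.77 and 5.86 in P8 middle and 6.03 and 6.10 in P8 base, and 6.40 and 5.96 in P0 apex, 6.38 and 5.92 in P0 middle and 6.51 and 6.11 in P0 base. Hoxd10, a gene of lumbar motor neurons, had 6.56 and 6.01 in the apex at P8, 6.31 and 6.13 in the middle and 6.60 and 6.08 in the base, followed at P0 by 6.14 and 5.90 in the apex, 6.17 and 5.88 in the middle and 6.43 and 6.16 in the base. Set 1 was above set 2 in every group in Hoxd10 and in all 3 regions at P0 in Hoxa10. Hoxd11, a gene of the forearm, gave 6.14 and 6.57 in P8 apex, 6.36 and 6.50 in P8 middle and 6.46 and 6.39 in P8 base, and 6.81 and 6.47 in P0 apex, 6.77 and 6.32 in P0 middle and 7.04 and 6.47 in P0 base. Hoxc12, a posterior gene of the trunk, had 5.79 and 5.87 in the apex at P8, 5.84 and 5.98 in the middle and 5.84 and 5.95 in the base, followed at P0 by 5.86 and 5.71 in the apex, 5.96 and 5.81 in the middle and 6.27 and 5.79 in the base. The log2 signal of Hoxd12, a limb gene, was 6.03 and 5.91 in P8 apex, 5.83 and 5.86 in P8 middle, 6.01 and 6.10 in P8 base, 5.94 and 5.98 in P0 apex, 5.83 and 5.92 in P0 middle and 6.12 and 5.79 in P0 base. Hoxd11 had the largest spread of the Hox genes after Hoxa2, 0.90, with its lowest array in P8 apex and its highest in P0 base, both of set 1. Hoxa13, a gene of the digits and the urogenital tract, gave 6.24 and 6.43 in P8 apex, 5.83 and 6.47 in P8 middle and 6.25 and 6.30 in P8 base, and 5.91 and 6.28 in P0 apex, 6.35 and 6.24 in P0 middle and 6.49 and 6.18 in P0 base. Hoxb13, a gene of the prostate and the tail, had 6.29 and 6.20 in the apex at P8, 6.01 and 6.14 in the middle and 6.29 and 6.23 in the base, followed at P0 by 5.87 and 6.15 in the apex, 5.99 and 6.08 in the middle and 6.41 and 6.12 in the base. Hoxa13 was lowest in P8 middle of set 1 and Hoxb13 in P0 apex of set 1. Hoxc13, which drives hair keratin genes in the hair follicle, gave 6.07 and 6.00 in P8 apex, 6.02 and 5.93 in P8 middle and 6.26 and 6.14 in P8 base, and 5.59 and 5.94 in P0 apex, 6.32 and 5.95 in P0 middle and 6.26 and 5.98 in P0 base. The log2 signal of Hoxd13, a gene of the digits, was 6.12 and 6.02 in P8 apex, 5.79 and 5.94 in P8 middle, 5.98 and 6.00 in P8 base, 5.36 and 5.90 in P0 apex, 5.97 and 5.92 in P0 middle and 6.22 and 5.80 in P0 base. Both had their lowest array in P0 apex of set 1, and the apex-base value of Hoxd13 at P0, the largest of the tested genes other than Hoxa2, was −0.86 in set 1 and 0.10 in set 2.

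Over the 26 tested genes, the apex-base difference had a median of −0.01 at P8 (all tested genes 0.00) and of −0.18 at P0 (all tested genes 0.03), with 15 and 22 of the 26 lower in the apex. Without Hoxa2 the values ran from −0.17 (Hoxc13) to 0.15 (Hoxb9) at P8 and from −0.38 (Hoxd13) to 0.08 (Hoxd1) at P0, all 25 under 1.5-fold. Between middle and base they ran from −0.25 (Hoxa10) to 0.15 (Hoxb9) at P8 and from −0.36 (Hoxc8) to 0.04 (Hoxc9) at P0. None of the 25 passed limma without a block, with the replicate block or with the pool block, and none reached an unadjusted p under 0.05 with 1.5-fold.

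The lower apex at P0 was seen in set 1 and not in set 2. On the P0 base array of set 1 all 36 Hox genes other than Hoxa2 lay above their own mean over the 12 arrays, with a median deviation of 0.24, and for 21 of the 36 this was the highest array. Over all tested genes the median deviation on that array was −0.02 and 7.67% had their highest value there, and over the 7623 other genes whose mean signal lay in the same range as those 36 (4.61 to 7.36) it was 0.05 and 15.7%. On the P0 apex array of set 1 those 7623 genes had a median deviation of −0.11, and 33.1% lay above their own mean, against 61.7% on the P0 base array. In set 2 their medians were 0.02 on the P0 apex array and −0.01 on the P0 base array. How many of them were lower in the apex in each set was not computed. Apex minus base at P0 in the 36 genes was lower in 33 and higher in 3 in set 1, with a median of −0.34. In set 2 it was lower in 12 and higher in 24, with a median of 0.03. By contrast the apex-base difference of Hoxa2 at P0 was larger in set 2 than in set 1. What set this array apart was not tested.

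**Figure D4:**
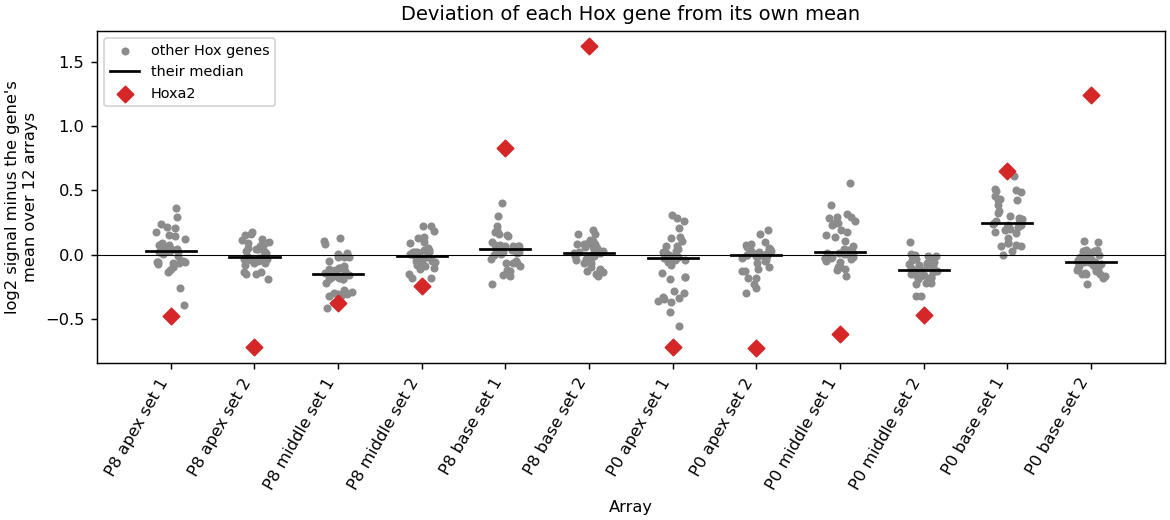
Log2 signal of each Hox gene minus its own mean over the 12 arrays (y axis) on each array (x axis), with grey points for the 36 genes other than Hoxa2, black bars for their median and red diamonds for Hoxa2. The medians lie between −0.15 and 0.04 except on the P0 base array of set 1, at 0.24, while Hoxa2 is above 0.6 on all 4 base arrays and below −0.2 on the other 8.

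No Hox gene passed the test between P8 and P0. Over the 3 regions 336 of all tested genes, or 2.06%, were higher at P8 and 186, or 1.14%, lower, and 0 of the 26 Hox genes were among either, by limma without a block, with the replicate block or at an unadjusted p under 0.05. The differences of the 25 genes other than Hoxa2 ran from −0.25 (Hoxa10) to 0.17 (Hoxd10), and the median of the 26 was 0.00. In the base 246 genes, or 1.51%, were higher at P8 and 111, or 0.681%, lower, again with 0 Hox genes, whose values other than Hoxa2 lay between −0.33 (Hoxd11) and 0.10 (Hoxd12). For the change of the apex-base difference 0% of tested genes passed limma without a block in either direction. At an unadjusted p under 0.05 it was larger in 215 genes and smaller in 118, with 0 Hox genes, and with the replicate block 23 and 6 genes passed, again with none of them.

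**Figure D5:**
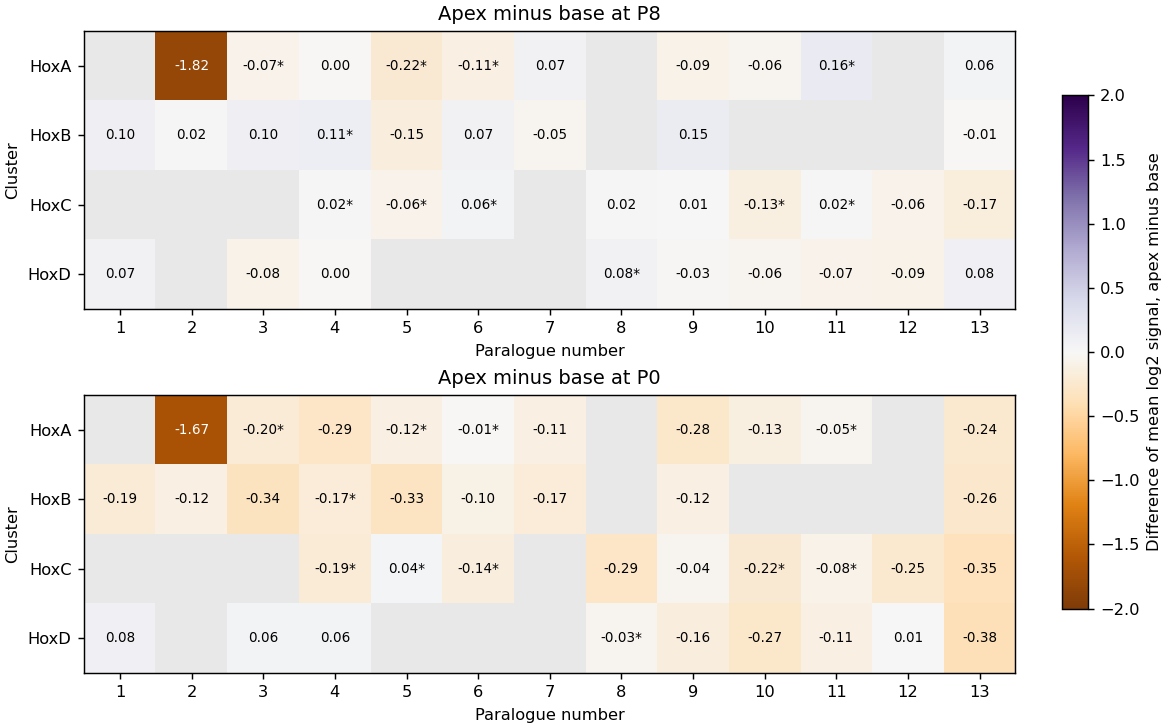
Difference of mean log2 signal, apex minus base, for each measured Hox gene by cluster (rows) and paralogue number (columns), at P8 above and P0 below, with the value printed in each cell, an asterisk for genes under 6 in all groups and grey for positions not measured here. Hoxa2 lies at −1.82 and −1.67, and the other genes between −0.22 and 0.16 at P8 and between −0.38 and 0.08 at P0.

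None of the genes that work with or upstream of Hox proteins passed the test between regions by limma without a block. Apart from Robo2, calls in these lists were made only without a block. What the arrays of 1 set share therefore adds to their SE, and a difference may be missed. Of 8 tested TALE homeodomain cofactors, which bind DNA together with Hox proteins, 0 passed in any comparison, with apex-base medians of 0.08 at P8 and 0.20 at P0. The 2 with the largest values at P8 were Pbx3 (0.65 ± 0.66, SE, n = 2 each) and Meis1 (0.16 ± 0.17). Of 7 tested upstream regulators, among them the retinoic acid receptor gene Rara (0.26 ± 0.29) and the homeobox gene Gbx2 (0.16 ± 0.20), and of 20 tested Polycomb and trithorax genes, among them Kmt2a (0.36 ± 0.19) and Phc3 (0.27 ± 0.17), 0 passed in any comparison. Their medians were 0.11 and 0.04 at P8 and −0.12 and 0.10 at P0. Of 5 tested genes known to depend on Hoxa2 in mouse embryos 1, Robo2, an axon guidance receptor, passed, in the direction opposite to Hoxa2, in which 0.178% of all tested genes passed at P8. Robo2 gave 9.71 and 9.47 in P8 apex, 9.15 and 8.90 in P8 middle and 8.37 and 8.47 in P8 base, and at P0 up to 10.16 in the apex, 9.85 and 9.99 in the middle and 9.26 and 9.45 in the base. The base arrays were the lowest at each age, and apex and base differed by 1.17 ± 0.16 at P8 (SE, n = 2 each, limma adjusted p = 0.0351) and by 0.72 ± 0.16 at P0 (adjusted p = 0.427). The call at P8 was lost with any 1 of the 12 arrays left out (limma adjusted p from 0.0517 to 0.341), with only the arrays of the 2 groups (0.768) and with a trend (0.0515), and was kept with the replicate block (0.00209) and the pool block (5.73e-05). Six2, a transcription factor gene held down by Hoxa2 in the second arch, stood at 0.60 ± 0.15 at P8 (adjusted p = 0.355) and 0.67 ± 0.15 at P0 (adjusted p = 0.477). The other 3 had apex-base values between −0.22 and 0.09 at the 2 ages.

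The 10 tested genes most like Hoxa2 by Pearson's r over the 12 arrays, given without a test, were Hoxaas2 (0.970), Gpr83 (0.924), Fap (0.861), Irx2 (0.833), Sipa1l2 (0.822), Kcne2 (0.820), Ntrk3 (0.819), Pi15 (0.815), Ntn1 (0.799) and Asb16 (0.786). Gpr83 gave 7.17 and 6.82 in P8 apex, 7.11 and 7.16 in P8 middle and 7.77 and 7.97 in P8 base, and 7.14 and 7.25 in P0 apex, 7.12 and 7.26 in P0 middle and 7.47 and 7.66 in P0 base. Like Hoxa2 it was high in all 4 base arrays, with an apex-base difference of −0.87 at P8 (adjusted p = 0.124) and −0.37 at P0 (adjusted p = 1). No other Hox gene was among the 10.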

How the data were processed

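The authors scanned 12 arrays and summarized the probes by RMA, for which no version is given in the sources used here, and deposited log2 signals. It is not stated if RMA was run once over both sets. Of 35556 entries 21789 carried 1 gene symbol, and entries with several (1621, among them 1 shared by Hoxb8 and Hoxb7) or none (12146) were left out. A gene with several entries was taken by its entry of highest mean signal, and 16306 genes with a mean above 6 in at least 1 group were tested, of which 16250 matched RefSeq (GRCm38.p6).

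Groups were compared with limma 3.58.1 in R 4.3.3 (lmFit and eBayes, 1 fit with 6 group means, no block, as the methods name an unpaired test), with Benjamini-Hochberg adjustment over all tested genes. The paper's methods give the pool that the 3 regions of 1 age and set share, and the set differences of any 2 groups correlated across genes with r from 0.544 to 0.916 over 15 pairs of groups, so that blocks of set and of pool were fitted as well. Arrays of 1 group differed with a median SD of 0.103 over tested Hox genes and 0.175 over all tested genes. With 2 arrays per group, the spread behind the p-values was estimated over all 6 groups together, with 6 residual and 2.78 prior degrees of freedom without a block. With a block, what the arrays of 1 set or pool share is left out of that spread. The number of arrays limits the precision. Scripts were tested on simulated data. Figures were drawn with matplotlib 3.10.9 from tables made in pandas 2.3.3 (Python 3.11.15).

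The genes, lists and comparisons were chosen with earlier results of these data known. Genes named are all Hox cluster genes, list members past the test or else the 2 with the largest apex-base values at P8, and the 10 genes most like Hoxa2. Six2, Hoxaas2 and the other noncoding genes inside the clusters were named outside this rule, after their values were seen.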

Additional observations from a re-analysis of the deposited data

How the results depend on the processing

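Among the Hox genes, the calls that changed with the processing all concerned Hoxa2, whose direction between regions was the same under every setting run. Between apex and base at P8 it passed (1 Hox gene) without a block, with either block, with a filter at 7, with a trend, after quantile normalization and by the methods' t-test before adjustment. The count was 0 with no filter on low signal (adjusted p = 0.0506), with only the arrays of the groups compared (0.838) and by the methods' t-test after Benjamini-Hochberg (1). It was 0 to 0 with any 1 of the 12 arrays left out, at adjusted p of 0.0621 to 0.423 and differences of −2.22 without P8 base replicate 1 to −1.42 without P8 base replicate 2. The fit without a block therefore holds only with all 12 arrays. At P0 the count between apex and base was 0 without a block and 1 with the replicate block, with the pool block and by the methods' t-test before adjustment. Between middle and base it was 0 at P8 and 1 with the replicate block and with the pool block. At P0 it was 0, and 1 with the pool block and by the methods' t-test before adjustment. The replicate block changed no other call. No Hox gene other than Hoxa2 was called under any setting.

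The number of Hox genes above the level was 26 at 6, 34 at 5.5, 5 at 7 and 11 at the 95th percentile of the receptor genes, the last of these chosen after seeing the data, and 25 to 29 with any 1 array left out. No share of all genes was computed at the levels other than 6, so the counts there have no background beside them. Differences within each dissection set and all values of Hoxaas2 and Robo2 under other settings were likewise added after seeing the data. The pool block was not run for P8 against P0, since each pool holds 1 age, and the methods' t-test was not run for the change of the apex-base difference. Signals near 6 are close to the background of the array, so that a difference among genes at that level may be missed.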
